A study of Mus musculus with 6 samples.

Results

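The 10 genes of BMP, activin and GDF signalling examined here were measured in mouse RNA labelled as left ventricle. They are the ligand genes Bmp10, Bmp2, Bmp4 and Bmp6, the growth and differentiation factor genes Gdf15 and Mstn, the activin subunit genes Inhba and Inhbb, and the follistatin family genes Fst and Fstl1. They were chosen by gene symbol, and all 10 of them were found among the 21989 symbols of the deposited table. The ISO group held left ventricles of male C57BL/6 mice that were injected under the skin with ISO at 10 mg/kg/d for 3 weeks, and its sample titles call it the heart failure group. The saline group, called sham in the sample titles, received an equal volume of normal saline. In heart studies ISO commonly stands for isoproterenol, which activates beta-adrenergic receptors. There were 3 libraries per group, and no transgene or mutation is named for either. Animals are not named in the labels, which call the libraries biological repeats, so each p-value refers to the spread among these samples, and that spread may be technical.

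BMPs, activins and GDFs are secreted dimers of the TGF-beta superfamily. Most of them bind pairs of type I and type II serine/threonine kinase receptors, while GDF15 binds another receptor, GFRAL. BMPs signal mainly through SMAD1, SMAD5 and SMAD9, while activins and myostatin signal through SMAD2 and SMAD3, and both branches share SMAD4. Soluble proteins such as follistatin bind the ligands and keep them from their receptors. In the adult heart BMP10 is known as a product of atrial muscle, and GDF15 is known as a circulating protein that rises with cell stress.

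Levels are in FPKM, which scales the fragments of a gene by its length and by the mapped fragments of the library, so that genes can be set side by side. The recovered library totals ran from 2776152 to 9862363 reads, with the lowest in saline 3. That library stood apart from the rest, with Pearson r across genes of 0.788 to 0.830 with the other 5, and 24.4% of its reads lay on genes longer than 5000 bases, against 30.5% to 34.3% in the others. None of the 8 ventricular markers was at 0 in any library, but their summed level was below that of the 12 atrial markers outside saline 3. The ventricular sums were 3682, 3537 and 629 for ISO 1 to 3, then 4181, 1457 and 14954 for saline 1 to 3. The atrial sums were 18577, 18705 and 15555, then 27074, 24585 and 10828, in the same order. By these sums all libraries but saline 3 looked more atrial than ventricular, despite the left ventricle label. The reason was not tested. The atrial light chain Myl7 likewise stood above the ventricular light chain Myl2 in all but saline 3. Myl2 stood at 0.172, 0.171 and 0.0168 of Myl7 in ISO 1 to 3, against 0.154, 0.0328 and 1.22 in saline 1 to 3. The 5 erythroid markers summed to 14034 to 29509 FPKM in ISO, against 3233 to 6683 FPKM in saline, and the 7 general cardiomyocyte markers to 12710 to 19278 FPKM in ISO, against 29177 to 33807 FPKM in saline, both without overlap. Their part in the fold changes below was not tested. The 3 liver genes checked (Alb, Apoa1 and Ttr) summed to 552 FPKM in saline 3 and to at most 30.8 FPKM in any other library. Since these are bulk samples, fewer cells of a type and less RNA per cell cannot be told apart.

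None of the 10 genes passed the test between ISO and saline libraries. The test was limma on log2(FPKM + 1) for 12269 genes whose mean reached 1 FPKM, with Benjamini-Hochberg adjustment at 0.05. It called 0% of all genes (774 had an unadjusted p under 0.05, and limma-voom on recovered reads also called 0, with 676 under 0.05). At an unadjusted p under 0.05, 4.92% of all genes were higher and 1.39% lower in ISO, and none of the 8 tested genes described here was among them. Of the 10 genes, 8 passed the filter on low values, and Inhba and Mstn did not. All 8 had a log2 fold change (ISO minus saline) above 0, as 68.1% of all genes tested did, and their median was 0.46 against 0.20 for all genes. After median-of-ratios scaling 7 of the 8 were above 0, with Bmp2 the exception, and the medians were 0.28 and 0.021. The largest log2 fold changes were those of Gdf15 (1.71), Bmp6 (1.05) and Bmp10 (1.01), of which those of Bmp6 and Bmp10 changed sign under alternatives given below, where 5.02% of all genes tested reached 1 or more. Between the groups 12.8% of all genes tested did not overlap with ISO higher and 3.72% with ISO lower, and none of the 8 was among them.

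**Figure D1:**
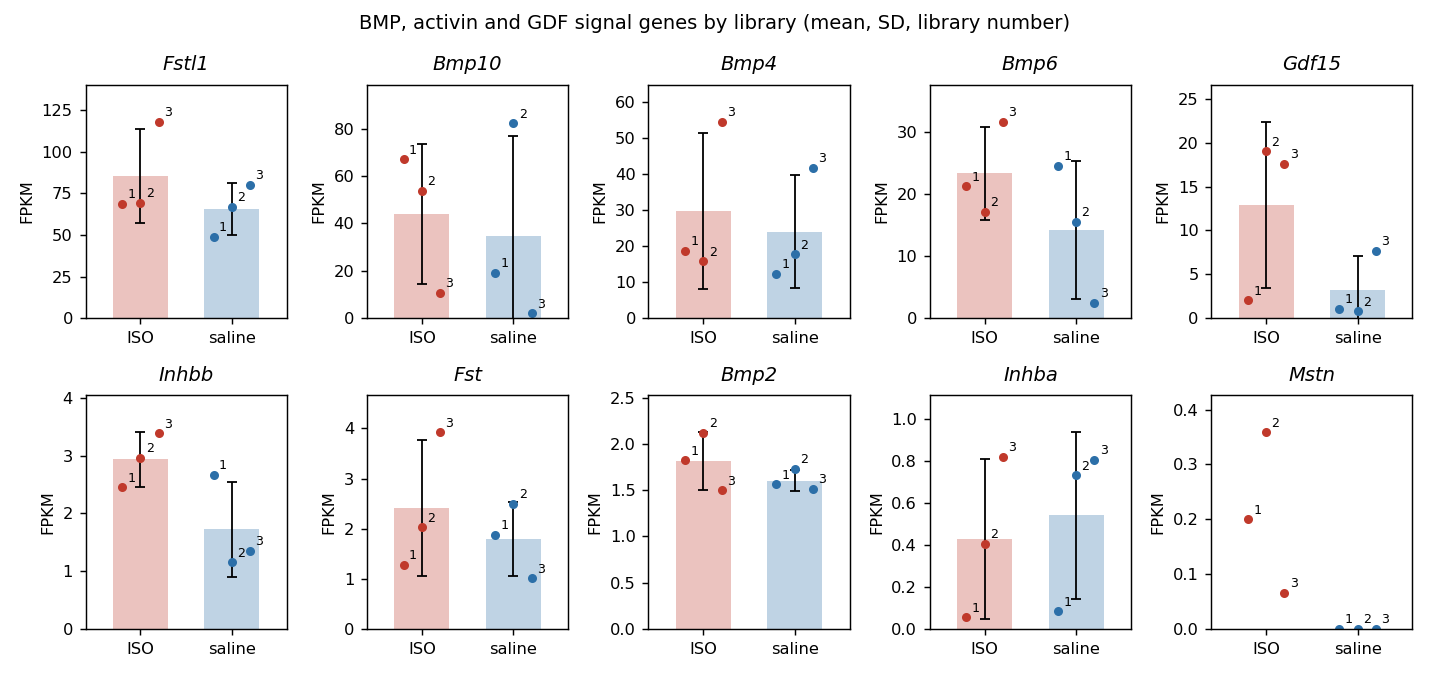
FPKM of the 10 genes in each library, with ISO left of saline, ordered by mean level. Points are libraries marked with their number, bars are group means and error bars are SD (n = 3, cut at 0), and Mstn is shown without bars because it is listed at 0 in all saline libraries. Only for Mstn do the groups not overlap.

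Across the 6 libraries the order of the mean levels was Fstl1 (75.3 FPKM), Bmp10 (39.3), Bmp4 (26.9), Bmp6 (18.8), Gdf15 (8.04), Inhbb (2.33), Fst (2.1), Bmp2 (1.71), Inhba (0.485) and Mstn (0.104). Neighbours in this order overlapped in their library values, except that Bmp2 lay above Inhba in all 6 libraries with no overlap. The highest library value was 37.9 times the lowest for Bmp10, 24.1 times for Gdf15, 12.5 times for Bmp6 and 4.42 times for Bmp4. It was 14.5 times for Inhba, on 3 to 33 reads, 2.41 times for Fstl1 and 1.42 times for Bmp2, and Mstn was at 0 in 3 libraries.

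Of the 8 tested genes, Bmp10, Gdf15, Bmp6 and Bmp4 had the largest ratios, and their RefSeq promoter windows are printed because the library differences below concern them. Each runs from 250 bases before to 50 bases after a start site on build GRCm38.p6, 5′ to 3′ on the strand of the gene. Capitals mark AGATAA, the letters bound by GATA factors, in Bmp10, and the E-box CACGTG in the other 3.
Bmp10, chr6:87428744-87429043, plus strand: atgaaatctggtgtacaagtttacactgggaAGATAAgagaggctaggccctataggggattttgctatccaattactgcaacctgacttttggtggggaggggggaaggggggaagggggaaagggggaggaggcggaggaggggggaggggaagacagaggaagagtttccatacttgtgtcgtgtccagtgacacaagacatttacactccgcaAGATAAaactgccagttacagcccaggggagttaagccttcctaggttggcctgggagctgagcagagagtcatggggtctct
Bmp4, chr14:46390620-46390919, minus strand: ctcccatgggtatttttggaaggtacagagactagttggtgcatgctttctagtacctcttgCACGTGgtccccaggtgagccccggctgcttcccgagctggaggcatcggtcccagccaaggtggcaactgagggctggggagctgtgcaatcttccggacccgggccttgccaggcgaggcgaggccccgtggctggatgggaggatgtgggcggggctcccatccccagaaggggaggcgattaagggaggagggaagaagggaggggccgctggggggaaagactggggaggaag
Bmp6, chr13:38345466-38345765, plus strand: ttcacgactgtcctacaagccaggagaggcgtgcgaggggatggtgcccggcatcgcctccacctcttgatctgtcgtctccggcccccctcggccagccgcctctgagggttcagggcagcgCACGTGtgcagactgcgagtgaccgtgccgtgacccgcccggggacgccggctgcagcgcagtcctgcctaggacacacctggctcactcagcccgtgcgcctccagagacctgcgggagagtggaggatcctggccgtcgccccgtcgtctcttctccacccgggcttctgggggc
Gdf15, chr8:70632046-70632345, minus strand, the downstream of 2 listed start sites: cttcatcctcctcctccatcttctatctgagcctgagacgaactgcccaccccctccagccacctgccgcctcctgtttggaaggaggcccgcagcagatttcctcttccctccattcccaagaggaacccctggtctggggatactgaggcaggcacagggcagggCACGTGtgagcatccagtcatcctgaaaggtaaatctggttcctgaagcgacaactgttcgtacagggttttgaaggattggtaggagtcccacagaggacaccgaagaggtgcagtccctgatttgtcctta
Both strands were searched for 7 motifs, among them the GATA motif and the E-box given above. The cyclic AMP response element TGACGTCA was searched whole and as its half-site TGACG, which it contains. The GC-rich SMAD box was searched as GGCGCC, and the TATA box of core promoters as TATAAA. The ATF4 element was searched as TGATGNAA, where N is any base. Windows were listed for 8 of the 10 genes, 9 windows in all. Bmp10 had 2 matches to AGATAA, 219 and 33 bases before its start site, and 11.2% of the 32851 windows in the table hold these letters. CACGTG was present for 3 of the 8 genes (Bmp4, Bmp6 and Gdf15), and 7.15% of all windows hold it. Of the 2 Gdf15 windows only the downstream one held it, and that window was printed for this reason. Mstn alone among the 8 held the half-site, which 20.8% of all windows hold. No window of these genes held the whole response element, the SMAD box or the ATF4 element, which 1.79%, 11.9% and 3.97% of all windows hold, and TATAAA was found for Mstn and Inhba and in 13.6% of all windows. These matches describe letters and not bound sites.

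Bmp10 (chromosome 6, 87428994 to 87434512) encodes a ligand of the endothelial receptor ALK1. It was at 67.2, 53.9 and 10.8 FPKM in ISO 1 to 3 and at 19.3, 82.3 and 2.17 FPKM in saline 1 to 3. High and low libraries were found in both groups: ISO 1, ISO 2 and saline 2 were high, and ISO 3 and saline 3 were low. The 95% exact Poisson interval was 62.2 to 72.5 FPKM in ISO 1 (657 reads) and 0.939 to 4.29 FPKM in saline 3 (8 reads), so these libraries differed by more than counting error. The log2 fold change of 1.01 (SE 1.20, limma adjusted p = 0.748) was -0.22 without saline 3, 2.14 without saline 2, 1.81 without ISO 3, 0.69 without ISO 2 and 0.54 without ISO 1.

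The level of Bmp10 was also set against atrial muscle. The 12 atrial markers, of which Bmp10 is one and none was at 0, summed to 15555 to 18705 FPKM in ISO, against 10828 to 27074 FPKM in saline libraries. Per 1000 FPKM of Myl7, Bmp10 was at 5.82, 4.69 and 1.29 FPKM in ISO 1 to 3 and at 1.16, 5.13 and 0.291 FPKM in saline 1 to 3. Bmp10 thus varied in relation to Myl7 too, and saline 1, with the highest Myl7 (16664 FPKM), had one of the lower ratios. The part of chamber makeup in the level of Bmp10 was not tested.

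Bmp4 (chromosome 14, 46383525 to 46390669) encodes a ligand used in heart and mesoderm development. Its level was 18.7, 15.8 and 54.6 FPKM in ISO 1 to 3 and 12.4, 17.7 and 41.9 FPKM in saline 1 to 3. The third library of each group was the highest, and the other 4 lay between 12.4 and 18.7 FPKM. The log2 fold change of 0.26 (SE 0.58, limma adjusted p = 0.863) turned to -0.28 without ISO 3 and -0.10 without saline 1, and was 0.74 without saline 3, 0.14 without saline 2, 0.47 without ISO 1 and 0.59 without ISO 2. An antisense gene of GENCODE M21, Gm15217, covers 3.96% of its exonic bases, and whether the counting used strand is not stated in the sources used here.

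Bmp6 (chromosome 13, 38345716 to 38500314) is known as an endothelial BMP that regulates iron through liver hepcidin. It stood at 21.2, 17.2 and 31.6 FPKM in ISO 1 to 3 and 24.5, 15.5 and 2.52 FPKM in saline 1 to 3. Saline 3 was far below the other 5 libraries, which ranged from 15.5 to 31.6 FPKM. The log2 fold change of 1.05 (SE 0.70, limma adjusted p = 0.699) was 0.20 without saline 3 and 1.63 without saline 1. It turned to -0.17 with sample quality weights and to -0.031 without both ISO 3 and saline 3. All 7 endothelial markers were detected in every library, and their sum was 435 to 518 FPKM in ISO, against 132 to 505 FPKM in saline, lowest in saline 3 as well. Their part in the level of Bmp6 was not tested. Txndc5, at 14.5 to 62.5 FPKM, lies on the opposite strand and covers 5.74% of the 3900 exonic bases of Bmp6 in GENCODE M21. The FPKM of Bmp6 rests on a length of 2996 bases, so whether the shared bases were counted is not known. Some reads of Bmp6 are therefore uncertain.

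Bmp2 (chromosome 2, 133552159 to 133562896), a ligand of the forming heart valves, was low and even. It was at 1.82, 2.12 and 1.5 FPKM in ISO 1 to 3 and 1.56, 1.73 and 1.52 FPKM in saline 1 to 3, on 15 to 55 reads. Its log2 fold change was 0.11 (SE 0.27, limma adjusted p = 0.878), and leaving out ISO 3 gave 0.19 while leaving out ISO 2 gave 0.029.

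**Figure D2:**
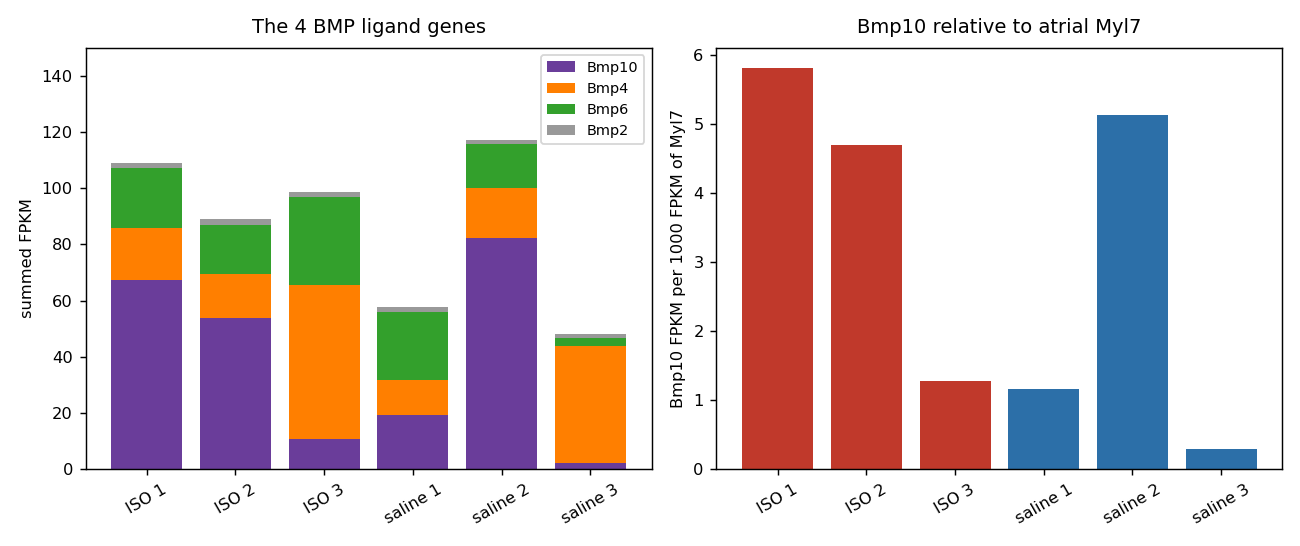
Left: FPKM of the 4 BMP ligand genes, stacked, in each library (ISO 1 to 3, then saline 1 to 3). Right: Bmp10 FPKM per 1000 FPKM of the atrial light chain gene Myl7. Bmp10 makes up 61.7% of the stack in ISO 1 and 70.2% in saline 2, while Bmp4 makes up 55.5% in ISO 3 and 87.1% in saline 3.

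The sum of the 4 BMP genes was 109, 88.9 and 98.5 FPKM in ISO 1 to 3, against 57.7, 117 and 48.1 FPKM in saline 1 to 3. Their makeup differed more between libraries than the sum did. Bmp10 was the leading BMP gene in ISO 1 and ISO 2 (61.7% and 60.6%) and in saline 2 (70.2%). Bmp4 led in ISO 3 (55.5%) and saline 3 (87.1%), and Bmp6 led in saline 1 (42.5%).

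Gdf15 (chromosome 8, 70629393 to 70632470) had the largest fold change of the 10 genes. It was at 2.02, 19.0 and 17.6 FPKM in ISO 1 to 3 and at 1.1, 0.789 and 7.69 FPKM in saline 1 to 3. ISO 2 and ISO 3 were above every saline library, while ISO 1 was below saline 3, so the groups overlapped. The reads behind these values were 21, 138 and 139 in ISO 1 to 3 and 15, 7 and 30 in saline 1 to 3. The 95% counting intervals of ISO 1 (1.25 to 3.09 FPKM) and ISO 2 (16.0 to 22.5 FPKM) did not meet.

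The group means of Gdf15 were 12.9 ± 9.44 FPKM in ISO and 3.19 ± 3.90 FPKM in saline (SD, n = 3 each), a log2 fold change of 1.71 (SE 0.89, limma adjusted p = 0.699). Without saline 3 the log2 fold change was 2.43 and without ISO 1 it was 2.60, and neither passed. Leaving out ISO 2, ISO 3, saline 1 or saline 2 gave 1.24, 1.29, 1.40 and 1.29. With sample quality weights Gdf15 rose by 2.69 on the log2 scale (limma adjusted p = 0.0489). The weights were 1.63, 5.50 and 0.449 for ISO 1 to 3 and 3.08, 1.04 and 0.0772 for saline 1 to 3. ISO 2 and saline 1 thus counted most in this fit. Those weights called 4.25% of all genes tested as higher in ISO, and over the 16 alternatives the adjusted p of Gdf15 ran from 0.0489 to 0.874.

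Gdf15 is known as a target of the integrated stress response and of p53, and 8 genes of these responses were set beside it. None passed, and 6 of the 8 (75%) had a fold change above 0, near the 68.1% of all genes tested. The median of the 8 was 0.44 against 0.20 for all genes. Atf4 (-0.19) and Chac1 (-0.20) were below 0, while Ddit3 (0.13) and Asns (0.32) were above it. Cdkn1a, the p53 target that blocks the cell cycle, was at 16.4, 31.0 and 26.3 FPKM in ISO 1 to 3 and 7.99, 11 and 10.3 FPKM in saline 1 to 3. Sesn2, a stress-induced regulator of mTORC1, was at 3.01, 2.70 and 3.42 FPKM in ISO 1 to 3 and 1.26, 0.716 and 0.271 FPKM in saline 1 to 3, where saline 3 rested on 2 reads. For these 2 genes the groups did not overlap, a pattern that 12.8% of all genes tested had in this direction. Their log2 fold changes were 1.21 for Cdkn1a and 1.24 for Sesn2 (limma adjusted p = 0.699 each). With sample quality weights both passed, with limma adjusted p = 0.0192 for Cdkn1a (0.0192 to 0.874 over 16 alternatives) and 0.0333 for Sesn2 (0.0333 to 0.874 over 15).

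Trib3, a target of ATF4, was at 7.0, 5.68 and 6.34 FPKM in ISO 1 to 3 and 4.35, 6.18 and 1.41 FPKM in saline 1 to 3. Atf3, a stress-induced transcription factor, was at 6.17, 19.2 and 25.3 FPKM in ISO 1 to 3 and 9.49, 12.6 and 7.47 FPKM in saline 1 to 3. Like Gdf15, Atf3 was low in ISO 1 and high in ISO 2 and ISO 3. The saline libraries differed, since Atf3 was lowest in saline 3, where Gdf15 was highest. Without saline 3 the median of the 8 genes was 0.13, against 0.063 for all genes.

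The levels of macrophage genes stand beside those of Gdf15. The 6 macrophage markers, none at 0 in any library, summed to 286, 453 and 417 FPKM in ISO 1 to 3 and 150, 186 and 260 FPKM in saline 1 to 3. Cd68, a lysosomal protein of macrophages, was at 33.6, 124 and 129 FPKM in ISO 1 to 3 and at 19.3, 26.1 and 26.0 FPKM in saline 1 to 3. In ISO 1 to 3, Csf1r (32.9, 59.9 and 57.0 FPKM) and Adgre1 (9.50, 24.7 and 23.0 FPKM) were likewise well below the rest in ISO 1. More even there were C1qa (182, 215 and 175 FPKM), Fcgr1 (8.11, 7.42 and 8.67 FPKM) and Mrc1 (19.6, 22.3 and 24.1 FPKM). The highest saline sum, in saline 3, was mostly the complement gene C1qa (196 FPKM there, against 92.7 in saline 1 and 107 in saline 2). The growth factor receptor gene Csf1r (17.4 FPKM) and the mannose receptor gene Mrc1 (10.9 FPKM) were lowest in saline 3, where Gdf15 was the highest of the saline libraries. The marker Adgre1 was instead the highest of the saline libraries there (6.70 FPKM, against 4.14 in saline 1 and 4.83 in saline 2). Fcgr1 lay between the others (3.06 FPKM, against 2.74 in saline 1 and 3.92 in saline 2). The part of macrophage content in the level of Gdf15 was not tested. Gfral, the hindbrain receptor of GDF15, was listed at 0 in every library.

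**Figure D3:**
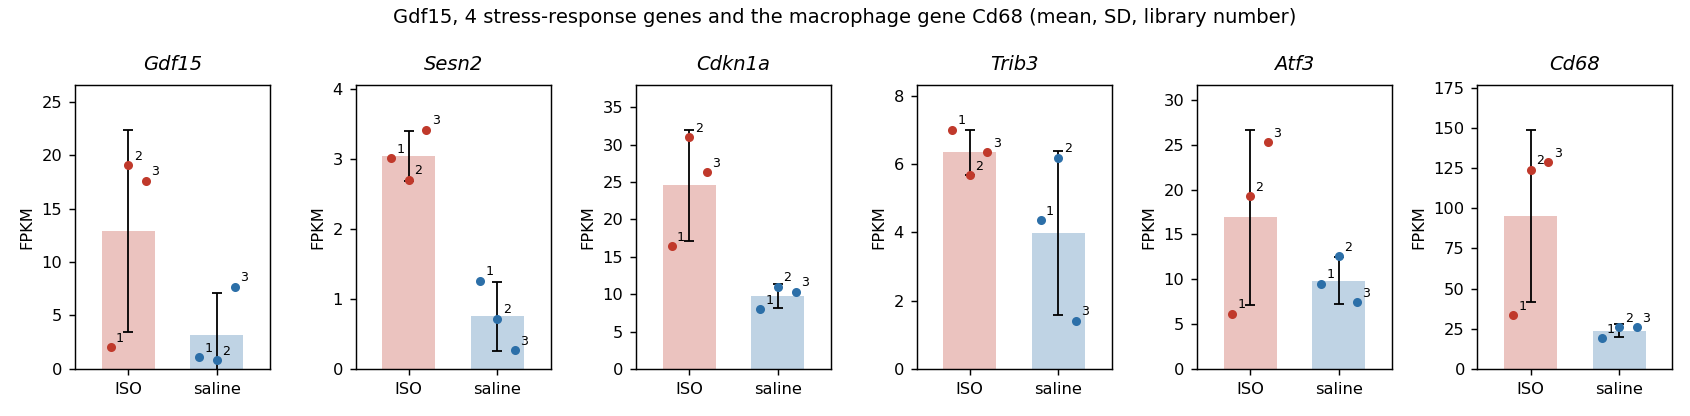
FPKM of Gdf15, of the 4 stress-response genes with the smallest p in their list and of the macrophage gene Cd68, with ISO left of saline. Points are libraries with their number, bars are means and error bars are SD (n = 3, cut at 0). Gdf15, Atf3 and Cd68 are lower in ISO 1 than in ISO 2 and ISO 3, while Sesn2 is even across the ISO libraries. Cd68 is 1 of 6 macrophage markers, of which C1qa, Fcgr1 and Mrc1 differ less among the ISO libraries.

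Inhbb (chromosome 1, 119415463 to 119422248), the beta B subunit of activin B, was at 2.45, 2.96 and 3.39 FPKM in ISO 1 to 3 and 2.67, 1.16 and 1.35 FPKM in saline 1 to 3. Saline 1 was above ISO 1, and the other saline libraries were below every ISO library. The means were 2.94 ± 0.470 FPKM in ISO and 1.73 ± 0.822 FPKM in saline (SD, n = 3 each), a log2 fold change of 0.56 (SE 0.31, limma adjusted p = 0.699). It stayed between 0.41 and 0.80 when any 1 library was left out, and it did not pass in any of these fits.

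Inhba (chromosome 13, 16004256 to 16031609), the beta A subunit of activin A, was below the filter. Its level was 0.0569, 0.407 and 0.823 FPKM in ISO 1 to 3 and 0.0851, 0.732 and 0.807 FPKM in saline 1 to 3, on 3 to 33 reads. The first library of each group was the lowest, and the groups overlapped over nearly their whole range. With no filter its log2 fold change was -0.11 (limma adjusted p = 0.885). Inhbb exceeded Inhba in all libraries, by 43.1, 7.28 and 4.12 times in ISO 1 to 3 and by 31.3, 1.58 and 1.68 times in saline 1 to 3.

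The alpha subunit Inha, which pairs with a beta subunit to make inhibin, was the most abundant of the 3 subunit genes. It was chosen after its values were seen, and was at 27.2, 24.2 and 9.74 FPKM in ISO 1 to 3 and 20.8, 26.4 and 16.5 FPKM in saline 1 to 3. Its log2 fold change was -0.15 (limma adjusted p = 0.889), and without ISO 3 it was 0.28.

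Mstn (chromosome 1, 53061640 to 53068079) encodes myostatin, which limits muscle growth. It was listed at 0.20, 0.359 and 0.0658 FPKM in ISO 1 to 3, which are 4, 5 and 1 reads, and at 0 in all 3 saline libraries. The ISO libraries held 10 reads in 18147401, against 0 in 18945554 for saline, where a count of 0 over the group allows up to 3 reads by counting error alone. No fold is given on so few reads. The 6 markers of skeletal muscle, a tissue that makes myostatin, summed to 70.5 to 476 FPKM in ISO, against 204 to 1012 FPKM in saline, mostly from the creatine kinase gene Ckm, which heart muscle also expresses. The single markers differed in direction. Actn3, the actinin of fast fibres, was at 4.22, 4.44 and 3.58 FPKM in ISO 1 to 3 and 2.70, 1.98 and 0.125 FPKM in saline 1 to 3. Its groups did not overlap, as for 12.8% of all genes tested with ISO higher (log2 fold change 1.13, limma adjusted p = 0.699). The log2 fold change was 0.58 for the fast troponin gene Tnnt3 and -0.64 for the fast light chain gene Mylpf, which reached 31.8 FPKM in saline 3. Myh4, a fast myosin gene, was at 0 in 2 ISO and 2 saline libraries and at most 0.119 FPKM elsewhere. The part of skeletal muscle RNA in the level of Mstn was not tested. For Mstn itself the groups did not overlap, as for 10.4% of genes above 0 in any library, and with no filter the gene did not pass (limma adjusted p = 0.739).

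Fst (chromosome 13, 114452262 to 114458989) encodes follistatin, the soluble binder of activins and myostatin. It was at 1.28, 2.03 and 3.92 FPKM in ISO 1 to 3 and 1.88, 2.49 and 1.01 FPKM in saline 1 to 3. ISO 3 was highest and saline 3 lowest, with the other 4 libraries mixed between them. The log2 fold change of 0.25 (SE 0.39, limma adjusted p = 0.799) was -0.050 without ISO 3, 0.031 without saline 3, 0.43 without saline 2 and 0.51 without ISO 1. Relative to the sum of Inhba and Inhbb, Fst was at 0.510, 0.603 and 0.931 in ISO 1 to 3 and 0.682, 1.32 and 0.466 in saline 1 to 3. An antisense gene, Gm47040, covers 2.51% of the 4589 exonic bases of Fst in GENCODE M21, while the FPKM of Fst rests on a length of 2861 bases.

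Fstl1 (chromosome 16, 37777055 to 37836516) encodes a secreted glycoprotein of fibroblasts and epicardium that shares a domain with follistatin. Its level was 68.6, 69.3 and 118 FPKM in ISO 1 to 3 and 48.9, 66.9 and 80.1 FPKM in saline 1 to 3. Saline 3 lay above ISO 1 and ISO 2, and otherwise the ISO libraries were higher. The means were 85.3 ± 28.3 FPKM in ISO and 65.3 ± 15.7 FPKM in saline (SD, n = 3 each), a log2 fold change of 0.36 (SE 0.31, limma adjusted p = 0.701). Without ISO 3 it was 0.11 and without saline 1 it was 0.17, while without saline 3 it was 0.52 and the groups did not overlap, as for 18.3% of all genes tested with ISO higher in those 5 libraries. The 8 fibroblast markers were all detected in every library. They summed to 1809, 1772 and 2059 FPKM in ISO 1 to 3 and 1282, 1090 and 920 FPKM in saline 1 to 3. These sums did not overlap between groups. Among the saline libraries the sum was lowest in saline 3, where Fstl1 was highest. Of the 8 markers 7 had a log2 fold change above 0, and Tcf21 did not (-0.18). The part of fibroblast content in the level of Fstl1 was not tested.

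**Figure D4:**
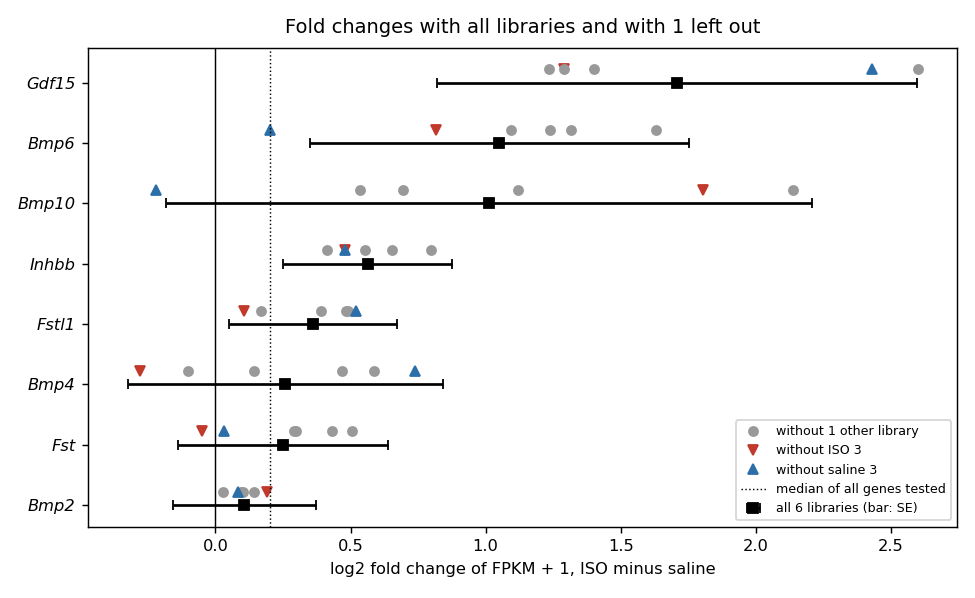
Log2 fold changes (ISO minus saline) of the 8 genes that passed the filter, from limma on log2(FPKM + 1). Squares are the fit with all 6 libraries with SE bars, circles and triangles above each are fits with 1 library left out, and the dotted line is the median of all genes tested (0.20). Bmp10 is at -0.22 without saline 3 and Bmp4 at -0.28 without ISO 3, while Gdf15 stays between 1.24 and 2.60.

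The rest of the pathway was read from 8 lists, together with the stress-response list above, and no gene of any list passed. Over the 9 lists 44 of 57 tested genes had a fold change above 0 (77.2%, against 68.1% of all genes tested), with a median of 0.42. Without saline 3 these became 38 of 57 (66.7%, against 59.1%) and a median of 0.11, against 0.063 for all genes. Without both ISO 3 and saline 3, a choice made after seeing the data, 32 of 57 were above 0 (56.1%, against 55.7%).

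Of 20 other ligand genes 4 passed the filter, 3 of them with a fold change above 0. Gdf10, a BMP3-like ligand, averaged 3.73 ± 1.12 FPKM in ISO and 2.34 ± 0.827 FPKM in saline (SD, n = 3 each). Gdf2, which encodes BMP9 and shares the receptor ALK1 with BMP10, was at 1.63, 0.909 and 1.31 FPKM in ISO 1 to 3 and 1.32, 1.06 and 0 FPKM in saline 1 to 3. Bmp8a and Inhbe were listed at 0 throughout.

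Receptor genes had 5 of 7 tested members above 0, with a median log2 fold change of 0.44 that was 0.0072 without saline 3. Acvrl1, the gene of ALK1, was at 27.8, 26.0 and 21.35 FPKM in ISO 1 to 3 and 16.6, 16.7 and 21.30 FPKM in saline 1 to 3, so that ISO 3 and saline 3 nearly met. Its log2 fold change was 0.44 (SE 0.23, limma adjusted p = 0.699), and with quality weights it rose by 0.61 (limma adjusted p = 0.0316, with a range of 0.0316 to 0.874 over 16 alternatives). Bmpr2, the main type II BMP receptor, averaged 8.64 ± 0.687 FPKM in ISO and 5.91 ± 2.86 FPKM in saline (SD, n = 3 each). Of the 5 co-receptor genes 4 were above 0, but 1 of 5 without saline 3 and 2 of 5 after median-of-ratios scaling. Eng, the endothelial co-receptor endoglin, was at 308, 276 and 326 FPKM in ISO 1 to 3 and 279, 271 and 87.8 FPKM in saline 1 to 3. Its log2 fold change of 0.68 was 0.14 without saline 3. Hfe2, the muscle co-receptor hemojuvelin, averaged 94.4 ± 36.3 FPKM in ISO and 138 ± 29.8 FPKM in saline, and Hfe2 had the lowest log2 fold change of these lists (-0.61, limma adjusted p = 0.699).

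Among the intracellular genes, 5 of 6 receptor and common SMAD genes were above 0 (median 0.39, and 0.13 without saline 3). Smad2, an activin-branch SMAD, averaged 2.54 ± 0.522 FPKM in ISO and 1.5 ± 0.137 FPKM in saline (SD, n = 3 each), and Smad4 averaged 10.8 ± 2.03 and 8.33 ± 0.466 FPKM. Neither gene overlapped between groups, a pattern that 12.8% of all genes tested had with ISO higher. The 5 feedback inhibitors were all above 0 (median 0.43), and 4 of 5 were without saline 3 (median 0.20). Smurf2, a ubiquitin ligase acting on SMADs and receptors, was at 10.6, 10.7 and 12.3 FPKM in ISO 1 to 3 and 8.10, 8.59 and 1.39 FPKM in saline 1 to 3. Its log2 fold change of 1.04 was 0.38 without saline 3. Smad7, an inhibitory SMAD, averaged 8.75 ± 0.798 FPKM in ISO and 6.39 ± 1.85 FPKM in saline.

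The target genes of BMP signalling differed in direction, with 5 of 7 tested above 0 (median 0.28, and 0.11 without saline 3). Id2, an inhibitor of helix-loop-helix factors, was at 48.2, 71.1 and 92.6 FPKM in ISO 1 to 3 and 43.4, 28.9 and 19.5 FPKM in saline 1 to 3. Its groups did not overlap, as for 12.8% of all genes tested with ISO higher. Its log2 fold change of 1.20 (SE 0.37, limma adjusted p = 0.699) was 0.93 without saline 3. Id1 and Id3, the related genes that BMPs induce most directly, were named after their values were seen. Id1 averaged 160 ± 48.8 FPKM in ISO and 176 ± 31.1 FPKM in saline, and Id3 averaged 198 ± 31.4 and 180 ± 14.1 FPKM (SD, n = 3 each). Their log2 fold changes were -0.16 and 0.13, and that of Id3 was -0.085 after median-of-ratios scaling. Atoh8, a BMP-responsive transcription factor, averaged 21.2 ± 1.54 FPKM in ISO and 17.5 ± 3.67 FPKM in saline.

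Extracellular antagonists had 7 of 10 tested genes above 0 (median 0.56, and 0.25 without saline 3). Nbl1, a BMP binder of the DAN family, was at 40.2, 37.0 and 54.7 FPKM in ISO 1 to 3 and 32.4, 33.9 and 15.2 FPKM in saline 1 to 3. Its groups did not overlap, as for 12.8% of all genes tested with ISO higher. Crim1, a membrane protein that binds BMPs, averaged 9.40 ± 3.59 FPKM in ISO and 5.26 ± 2.29 FPKM in saline (SD, n = 3 each). For the processing enzymes 4 of 5 tested genes were above 0 (median 0.43, and 0.17 without saline 3). Pcsk6, a convertase of ligand precursors, averaged 10.8 ± 3.25 FPKM in ISO and 7.01 ± 0.832 FPKM in saline. Bmp1, a metalloproteinase that cleaves the BMP antagonist chordin and is no BMP ligand, averaged 52.6 ± 14.6 and 37.2 ± 10.7 FPKM.

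**Figure D5:**
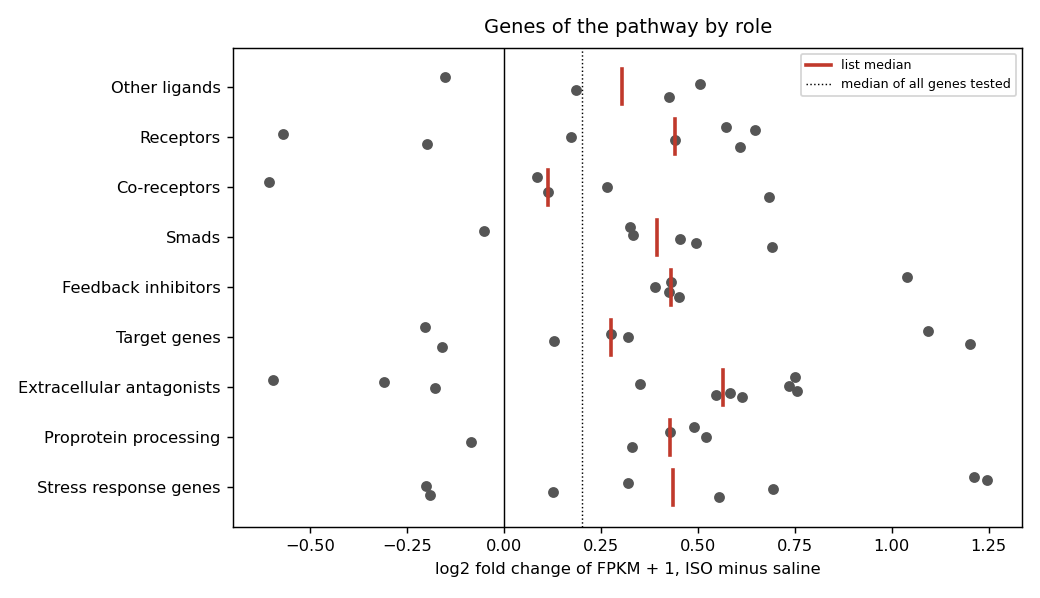
Log2 fold changes (ISO minus saline, log2(FPKM + 1)) of the tested genes of 9 lists, with 1 point per gene. Red bars are list medians and the dotted line is the median of all genes tested (0.20). The co-receptor median (0.11) is the only one left of that line, and no point passed the test.

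For each of the 8 tested genes the most similar profiles over the 6 libraries were listed, by Pearson r of log2(FPKM + 1) among the genes tested. The values describe 6 points that share library makeup and depth. These genes were picked for their high r among all genes tested, so the shared patterns follow from the choice. Nearest to Bmp10 were Rgs12 (r 0.998), Rufy4 (0.992) and Nat10 (0.990), and nearest to Gdf15 were Cbl (0.993), Gbp5 (0.989) and Ctsd (0.987). Ctsd, the gene of the lysosomal protease cathepsin D, was at 298, 603 and 555 FPKM in ISO 1 to 3 and 244, 274 and 466 FPKM in saline 1 to 3, so saline 3 and the last 2 ISO libraries were high as for Gdf15. Bmp4 was most like Coro1a (0.996), Ube2r2 (0.992) and Rbm45 (0.991). Bmp6 was most like Bbs5, Ermp1 and l7Rn6 (0.996 each), which were all lowest in saline 3. Fstl1 lay nearest to Pltp and Tnnt3 (0.981 each) and Clip3 (0.976), Inhbb to Tex264 (0.991), B2m (0.978) and Cdc20 (0.975), Fst to Slc43a1 (0.993), Nup98 (0.991) and Btk (0.990), and Bmp2 to Gas2 (0.979), Rnf217 (0.974) and Tstd3 (0.971).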

How the data were processed

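RNA-seq of polyadenylated RNA from left ventricle was deposited by the authors as FPKM, 1 column per library, 3 ISO and 3 saline. Tools named in the submitters' processing notes, with no role or order, are HISAT2 2.1.0, Cufflinks 2.2.1, HTSeq 0.7.2, DESeq, fastp 0.20.0 and CASAVA 1.8, and the build named is GRCm38. The annotation, the strand setting and the tool that made the FPKM are not given in the sources used here. Because FPKM is relative to the library, more reads on abundant genes leave fewer for the rest.

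Whole reads were recovered from the steps of the FPKM (tolerance 0.0001) for 100% of 16816 genes, those with a value above 0 in 2 or more libraries. Poisson intervals (95%) cover counting error only. Fits used limma 3.58.1 in R 4.3.3 on group alone, with a mean-variance trend, a pseudocount of 1 and a filter of mean FPKM of at least 1. On this scale the fold changes of low genes are understated. Tables were made in Python 3.11.15 with scipy 1.17.1, pandas 2.3.3 and numpy 2.4.6. Both the recovery and the fit were tested on simulated data. Promoters and gene positions came from RefSeq (GRCm38.p6).

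The genes, lists and tests were chosen with earlier results of these data known. From each pathway list the 2 tested genes with the smallest p are named (4 for stress-response genes, whose other members are given by fold change only). Inha, Id1, Id3, Gdf6 and Grem1 were named after their values were seen. Single marker genes and genes listed at 0 were also named outside this rule. Alternatives were other pseudocounts (0.1 and 0.5), filters, scalings, quality weights, a replicate block, limma-voom on recovered reads and each library left out.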

Additional observations from a re-analysis of the deposited data

How the results depend on the processing

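Calls of 0 genes and of 0 of the 10 genes held under all alternatives but 2, namely sample quality weights (768 genes and 1 of the 10, Gdf15) and, for all genes, the fit without ISO 1 (16 genes), so leaving out 1 library gave 0 to 16 genes. In the fit with the replicate block 0 genes were called. Deviations of same-numbered libraries from their group means correlated at 0.013, -0.15 and -0.025. With 3 libraries per group these values cannot show whether the numbers pair the libraries. The count of the 10 genes whose groups did not overlap (1, Mstn) was 1 to 3 with 1 library left out, where 19.8% to 26.1% of all genes above 0 did not overlap, against 14.3% with all 6 libraries. It was 4 (Bmp2, Gdf15, Mstn and Fstl1) without ISO 3 and saline 3, an alternative added after seeing the data, where 43.0% of all genes did not overlap. Scaling turned the sign of Bmp2 (-0.027 with median-of-ratios, -0.16 with quantile normalization), Id3 (-0.085 with median-of-ratios) and Fst (-0.032 with quantile normalization). Quality weights turned that of Bmp6 (-0.17), Fst (-0.031), Gdf2 (-0.10) and Inha (0.095). Without ISO 3 and saline 3, Bmp6 was at -0.031, Fst at -0.27 and Inha at 0.12. With 1 library left out the log2 fold change ran from -0.22 to 2.14 for Bmp10, from -0.28 to 0.74 for Bmp4, from -0.050 to 0.51 for Fst and from -0.41 to 0.28 for Inha. The causes of these changes were not tested. Depth limits Mstn (10 reads in all), Inhba (3 to 33 per library), Gdf15 (7 reads in saline 2, and 15 to 30 in the other saline libraries and 21 in ISO 1), and the saline 3 values of Bmp10 and Fst (8 each).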

Other observations

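Gdf6, a BMP-family ligand that was below the filter, differed mainly in 1 library. It was at 0.115, 0.659 and 3.83 FPKM in ISO 1 to 3 (3, 12 and 76 reads) and at 0.0861, 0.180 and 0 FPKM in saline 1 to 3 (3, 4 and 0 reads). Grem1, the gene of the BMP antagonist gremlin 1, was present or not in both groups. It was listed at 0, 2.18 and 2.41 FPKM in ISO 1 to 3 (0, 20 and 24 reads) and at 0, 2.23 and 0 FPKM in saline 1 to 3 (0, 25 and 0 reads). Both genes were chosen after their values were seen, and Grem1 did not pass (log2 fold change 0.58, limma adjusted p = 0.742).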
